A study of Mus musculus with 6 samples.

Results

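The IGF system of a mouse fat cell line was described here through 10 genes: the ligand gene Igf1, the clearance receptor gene Igf2r, the binding protein genes Igfbp2, Igfbp3, Igfbp4, Igfbp5, Igfbp6 and Igfbp7, and the mRNA binding protein genes Igf2bp2 and Igf2bp3. They were taken by symbol from the gene names of the deposited table, each had 1 row of its own with no other gene name in it, and they were 10 of 31097 rows. RNA was sequenced from the 3T3-F442A line, preadipocytes that can be turned into fat cells in culture, with intact SWELL1 (WT, 3 libraries) and with SWELL1 knocked out by CRISPR/Cas9 (KO, 3 libraries). All cells grew in RPMI with 10% FBS, and no differentiation step is named in the labels. SWELL1 (gene symbol Lrrc8a) is a subunit of the anion channel that opens when cells swell, and the study asked how its loss changes gene expression in this line. The labels call the libraries biological replicates, do not say whether the KO libraries share a clone, and mark KO libraries alone with D3, whose meaning is not given. Genotype, clone and that mark cannot be told apart, and the p-values cover only how much these 6 libraries vary.

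Insulin-like growth factors act on cells through the IGF1 receptor, a tyrosine kinase that drives growth and survival and, in preadipocytes, differentiation. IGF2R has no kinase: it carries IGF2 from the cell surface to lysosomes for breakdown and also sorts newly made lysosomal enzymes that bear mannose 6-phosphate. The IGFBPs are secreted proteins that hold IGFs in the medium and the matrix and either keep them from the receptor or deliver them when proteases cut the binding protein. The IGF2 mRNA binding proteins are unrelated to the IGFBPs: they are cytoplasmic RNA binding proteins that regulate the stability, transport and translation of mRNAs, those of Igf2 among them.

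Levels are in FPKM, fragments for each kilobase of a transcript scaled to the mapped total, so different genes can be set side by side per length. The unit is an inference, since no label names it and the submitters' processing notes name Cufflinks. Where 3 values are given for a group they are those of replicates 1, 2 and 3, in that order. Depth, estimated from the worth of 1 fragment, ran from 17.1 to 20.8 M fragments in the WT libraries and from 18.4 to 26.0 M in the KO libraries. The row that holds Lrrc8a also holds Nup188 and Phyhd1 and stood at 32.5 to 35.0 FPKM in WT and 27.3 to 28.8 in KO, which does not check the knockout. The row AC166252.2 took 16.7% to 23.7% of the summed FPKM in KO and at most 2.1% in WT. All 8 fibroblast and preadipocyte markers passed the filter and summed to 6739 to 7581 FPKM in WT and 6160 to 6216 in KO. Of these 3 rose: Vim (1391 to 1530 FPKM in WT, 1822 to 1908 in KO), Col3a1 (1297 to 1528 and 1699 to 1749) and Pdgfrb (27.6 to 31.0 and 40.8 to 42.1). The other 5 fell, among them Thy1 (282 to 303 FPKM in WT, 138 to 153 in KO) and Dlk1 (1101 to 1368 and 658 to 751). The 8 adipocyte markers summed to 277 to 358 FPKM in WT and 106 to 152 in KO, 4 of the 5 tested fell, and Lep was listed at 0 in all 6 libraries. Most of the KO sum was Lpl (104 to 147 FPKM, 140 to 163 in WT), while Fabp4 went from 133 to 188 FPKM in WT to 2.45 to 4.37 in KO and Pparg from 1.05 to 2.49 to 0.0689 to 0.182. Their part in the IGF results was not tested, and in bulk RNA fewer cells of a type and less RNA per cell cannot be told apart. Of macrophage, endothelial, epithelial and skeletal muscle markers, no list summed to more than 2.45 FPKM in any library. Only 3 of 5 macrophage and 4 of 5 muscle markers had a row of that name. Each list had 1 tested marker, which rose in the endothelial, epithelial and muscle lists and fell in the macrophage list.

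Of the 10 genes, 8 passed the filter of a mean of at least 0.5 FPKM and were tested on log2(FPKM + 0.5) with limma, adjusted over all 10515 tested rows. Igf2r, Igfbp6, Igf2bp2 and Igf2bp3 rose, Igfbp3, Igfbp4 and Igfbp7 fell, and Igf1 did not pass. Igfbp2 and Igfbp5 were below the filter. The 7 calls among 8 tested genes stand beside 65.2% of all tested rows called, 28.5% higher and 36.7% lower in KO. Groups did not overlap for 7 of the 8 genes, against 71.8% of tested rows. The median log2 fold change of the 8 was 0.12, and that of all tested rows was -0.07. In size without direction the median was 0.50 for the 8 genes and 0.44 for all tested rows, so the family as a whole moved by about as much as the table around it.

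**Figure D1:**
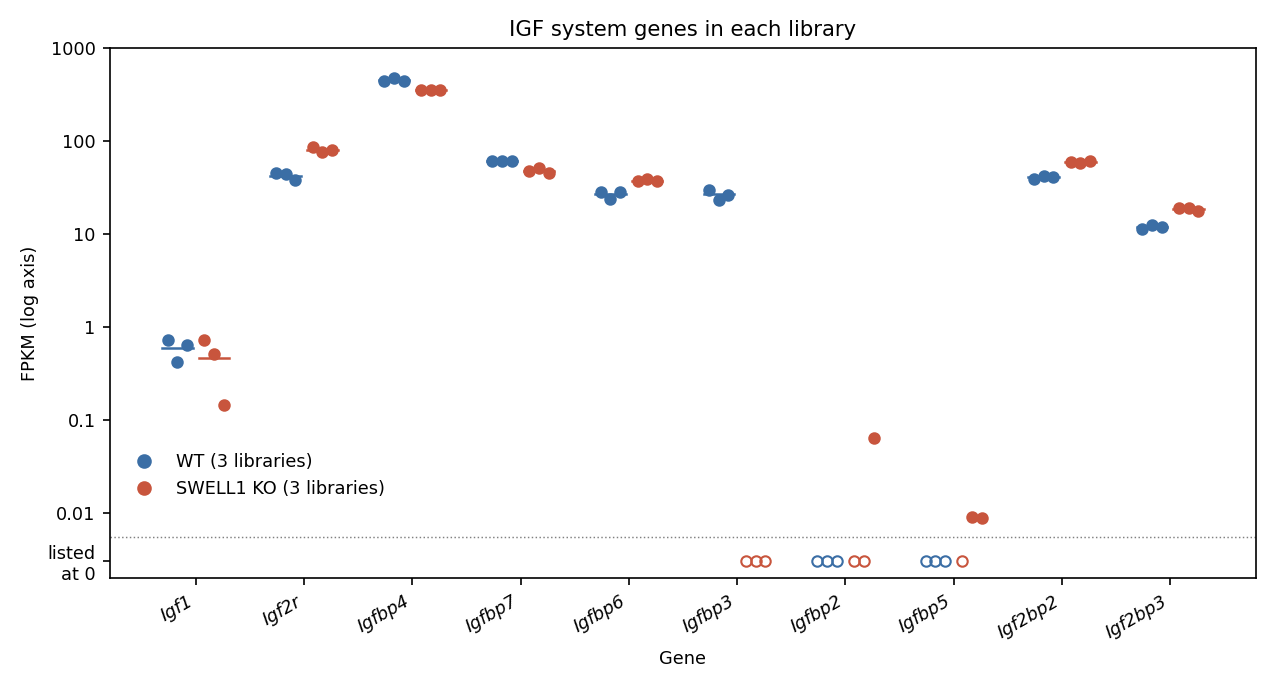
Level of the 10 genes in every library, in FPKM on a log axis. Filled points are single libraries, short lines are group means, and open points under the dotted line are libraries listed at 0. Igfbp4 stood highest in both groups (439 to 480.5 FPKM in WT, 353 to 357 in KO), and Igfbp3 was listed at 0 in every KO library.

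The 250 bases before the start site are shown for the 3 genes with the largest increases (Igf2r, Igf2bp3, Igf2bp2), for the most abundant gene (Igfbp4) and for the gene listed at 0 in KO (Igfbp3), because these carry the changes described below. They are RefSeq promoters of GRCm38.p6, written 5′ to 3′ on the strand of the gene. Capitals mark matches on either strand to the GC box GGGCGG, the E-box CACGTG and the TATA box TATAAA.
Igf2r, chr17:12769707-12769956, minus strand: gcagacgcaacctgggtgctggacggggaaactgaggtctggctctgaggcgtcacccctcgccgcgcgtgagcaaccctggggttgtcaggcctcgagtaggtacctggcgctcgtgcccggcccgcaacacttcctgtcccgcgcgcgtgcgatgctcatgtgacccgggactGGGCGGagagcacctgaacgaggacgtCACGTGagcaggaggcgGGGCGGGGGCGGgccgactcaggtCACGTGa
Igf2bp3, chr6:49214955-49215204, minus strand: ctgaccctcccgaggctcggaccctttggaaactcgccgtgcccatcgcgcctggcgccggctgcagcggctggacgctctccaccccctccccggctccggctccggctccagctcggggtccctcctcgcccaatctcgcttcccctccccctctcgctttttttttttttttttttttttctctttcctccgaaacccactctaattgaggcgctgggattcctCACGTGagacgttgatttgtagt
Igf2bp2, chr16:22163300-22163549, minus strand: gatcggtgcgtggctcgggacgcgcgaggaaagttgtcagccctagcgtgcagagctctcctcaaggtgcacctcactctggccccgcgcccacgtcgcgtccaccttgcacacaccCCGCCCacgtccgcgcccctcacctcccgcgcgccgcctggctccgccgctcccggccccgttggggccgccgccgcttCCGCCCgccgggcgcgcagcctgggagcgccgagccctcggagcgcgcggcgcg
Igfbp4, chr11:99040994-99041243, plus strand: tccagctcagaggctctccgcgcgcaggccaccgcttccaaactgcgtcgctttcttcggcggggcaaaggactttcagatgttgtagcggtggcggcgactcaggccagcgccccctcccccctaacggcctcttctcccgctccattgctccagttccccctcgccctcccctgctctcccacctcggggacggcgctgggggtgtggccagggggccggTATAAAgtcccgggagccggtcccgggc
Igfbp3, chr11:7213924-7214173, minus strand: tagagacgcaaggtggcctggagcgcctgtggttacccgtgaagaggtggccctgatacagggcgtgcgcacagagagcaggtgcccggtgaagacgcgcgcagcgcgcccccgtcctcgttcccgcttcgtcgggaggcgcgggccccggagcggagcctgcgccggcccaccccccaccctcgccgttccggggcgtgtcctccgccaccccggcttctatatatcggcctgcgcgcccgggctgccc

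All 5 windows are rich in CpG dinucleotides, against a median of 6 over 32851 promoter windows of the same length. They hold 27 in Igf2r, 21 in Igf2bp3, 40 in Igf2bp2, 22 in Igfbp4 and 32 in Igfbp3. Windows of the other genes hold 5 (Igf1), 7 (Igfbp6), 10 (Igfbp5), 14 and 11 (Igfbp2) and 26 (Igfbp7). Positions are counted from the RefSeq start sites. The E-box letters stand at -48 to -43 and -7 to -2 of the Igf2r start site and at -23 to -18 of Igf2bp3. The same letters are also in a window of Igfbp2, a gene with almost no RNA here, and in 6.02% of all windows. In the GENCODE annotation Igf2r starts at 12769664, downstream of its RefSeq start site, so its positions depend on the annotation. GC boxes are in the windows of 4 of the 10 genes (Igf2r, Igf2bp2, Igfbp2 and Igfbp7) and in 32.7% of all windows. The TATA letters are in the windows of Igfbp4, at -28 to -23, and of Igfbp6, at -148 to -143 on the opposite strand. Anywhere in the window and on either strand, 12.4% of all windows hold them. GENCODE puts the Igfbp6 start at 102144362, also downstream of the RefSeq start site. The Igfbp3 window holds none of the 3 motifs in these exact letters. Similar letters, such as its tatatat, were not counted. The marked matches describe letters and are not binding sites.

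Igf1, the ligand made by many mesenchymal cells (chromosome 10, 87858265 to 87937042, plus strand, GRCm38), was close to the limit of the filter. It read 0.715, 0.414 and 0.635 FPKM in the WT libraries against 0.722, 0.511 and 0.144 FPKM in the KO libraries. The groups overlapped, and KO replicate 3 was the lowest library. The log2 fold change was -0.22 (95% interval -0.90 to 0.45, limma adjusted p = 0.504). That interval holds both a fall of 0.90 and a rise of 0.45 log2 units. Scaled to the longest of its 8 annotated transcripts (7052 bases), the lowest library holds an estimated 18.6 fragments and the others 55.8 to 97.1. These are upper estimates, since a shorter transcript gives fewer fragments for the same FPKM.

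Igf2, the other ligand and not one of the 10 genes, sets the scale for Igf1. It read 450.3, 468 and 478 FPKM in the WT libraries against 8.37, 7.96 and 8.01 in the KO libraries (log2 fold change -5.76, SE 0.04, limma adjusted p = 1.66e-07). Igf2 RNA was therefore far above Igf1 RNA per length in every library of both groups. Of the receptor genes outside the 10, Igf1r read 11.8, 10.5 and 10.7 FPKM in WT against 7.53, 9.34 and 8.81 in KO. Its log2 fold change was -0.35 (SE 0.09, limma adjusted p = 0.0176). That call was lost with a replicate block (limma adjusted p = 0.0581) and without WT replicate 1 (limma adjusted p = 0.0558). Insr, the insulin receptor gene, was at 9.27 ± 1.53 and 9.42 ± 0.76 FPKM (SD, n = 3 each; limma adjusted p = 0.841), and Insrr, the insulin receptor related receptor gene, was listed at 0 in all 6 libraries.

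Igf2r, the receptor that clears IGF2 and sorts lysosomal enzymes (chromosome 17, 12682406 to 12769664, minus strand), rose 1.91-fold. It read 44.8, 43.8 and 38.1 FPKM in the WT libraries against 85.4, 76.8 and 79.4 FPKM in the KO libraries. Every KO library was above every WT library. On the log2 scale this was 0.92 (SE 0.08, limma adjusted p = 0.000141), larger in size than that of 78.2% of tested rows. The antisense RNA Airn overlaps Igf2r in the genome but shares no annotated exon base with it.

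The other mannose 6-phosphate receptor moved the other way. M6pr, the cation-dependent receptor gene, fell from 68.0, 73.5 and 73.4 FPKM in WT to 34.0, 33.5 and 35.0 in KO (log2 fold change -1.06, SE 0.04, limma adjusted p = 1.34e-05). Igf2r over M6pr, a ratio that library scaling cannot change, was 0.659, 0.596 and 0.519 in WT and 2.51, 2.29 and 2.27 in KO. Igf2r was thus the lower of the pair in all WT libraries and the higher in all KO libraries. Of the 6 tested genes of mannose 6-phosphate sorting 5 fell and none rose, against 36.7% of all tested rows called lower and 28.5% higher. The adaptor gene Gga2 was among those that fell (30.1 ± 1.26 FPKM in WT, 16.2 ± 0.45 in KO, SD, n = 3 each; limma adjusted p = 3.03e-05). Igf2r over Igf1r went from 3.80, 4.17 and 3.56 in WT to 11.3, 8.22 and 9.00 in KO, again with no overlap.

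Igfbp4, whose protein binds IGFs and holds them back from the receptor until the protease PAPP-A cuts it (chromosome 11, 99041244 to 99054392, plus strand), was the most abundant of the 10 genes and fell 1.27-fold. It read 439, 480.5 and 439 FPKM in the WT libraries against 356, 353 and 357 FPKM in the KO libraries. The KO libraries lay within 4 FPKM of each other and all below the WT libraries. The log2 fold change was -0.35 (SE 0.04, limma adjusted p = 0.000825), and it shrank to -0.18 under quantile normalization, with the call kept (limma adjusted p = 0.00488).

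Igfbp7 encodes a secreted, matrix-bound protein with low affinity for IGFs (chromosome 5, 77349240 to 77408041, minus strand). It fell 1.27-fold, from 61.5, 60.6 and 61.5 FPKM in WT to 47.7, 50.9 and 45.7 in KO. Here too all KO libraries were below all WT libraries. Its log2 fold change was -0.35 (SE 0.05, limma adjusted p = 0.00115), and -0.15 under quantile normalization (limma adjusted p = 0.0257). Its exons share 85 bases, 7.03% of them, with the converging gene Polr2b, which did not pass (log2 fold change -0.05, limma adjusted p = 0.420).

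Igfbp4 and Igfbp7 lie on different chromosomes, and their levels differed several-fold. Igfbp4 over Igfbp7 was 7.14, 7.93 and 7.13 in WT and 7.45, 6.94 and 7.80 in KO. The groups overlapped in this ratio, with means of 7.40 ± 0.46 and 7.40 ± 0.43 (SD, n = 3 each).

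Igfbp6 encodes the binding protein that prefers IGF2 over IGF1 (chromosome 15, 102144362 to 102149511, plus strand) and rose 1.39-fold. It read 28.6, 24.0 and 28.4 FPKM in the WT libraries against 36.9, 38.8 and 36.8 FPKM in the KO libraries. WT replicate 2 was the lowest library and the KO libraries were all above WT. The change was 0.47 on the log2 scale (SE 0.08, limma adjusted p = 0.00248). Igfbp4 over Igfbp6 was 15.3, 20.0 and 15.4 in WT and 9.63, 9.11 and 9.70 in KO, so these binding protein genes changed unequally whatever the scaling.

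Igfbp3 encodes the main carrier of IGFs in blood, which also acts on cells without IGF (chromosome 11, 7206086 to 7213923, minus strand). It read 30.1, 23.3 and 26.5 FPKM in the WT libraries and was listed at 0 in all 3 KO libraries. On its longest transcript of 2421 bases the WT values correspond to an estimated 1076 to 1337 fragments. The limma call was lower (adjusted p = 1.44e-06), and no fold is given because an exact 0 in this table can be a failed estimate. Of 6975 rows at 5 FPKM or more in all WT libraries, 18 were listed at 0 in all KO libraries (0.258%), and Igfbp3 was one of them. Stat5a, a gene of the growth hormone pathway named after its values were seen, shows such a 0 within a group: it read 39.9, 0 and 34.3 FPKM in the WT libraries and 0 in all KO libraries (limma adjusted p = 0.0788). Igfbp1, whose 3′ end lies 3539 bases from that of Igfbp3, was listed at 0 in all 6 libraries.

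Igfbp2 and Igfbp5 had almost no RNA in either group. Igfbp2 (chromosome 1, 72824503 to 72852474, plus strand), a binding protein of fetal tissues and of differentiating preadipocytes, was listed at 0 in 5 libraries and at 0.0634 FPKM in KO replicate 3. Igfbp5 (chromosome 1, 72857932 to 72874884, minus strand), a matrix-bound binding protein, was listed at 0 in 4 libraries and at 0.00891 and 0.00887 FPKM in KO replicates 2 and 3. On the longest transcript of each gene, the values above 0 correspond to an estimated 1.52 fragments for Igfbp2 and 1.39 and 0.978 for Igfbp5. These genes are neighbours, with their 3′ ends 5457 bases apart, and no difference between the groups was detectable at this depth.

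Added up, the RNA of the 6 binding protein genes was lower in KO. The sum was 559, 588 and 555 FPKM in WT and 440.3, 443 and 439 in KO (568 ± 18.1 and 441 ± 1.87, SD, n = 3 each). All KO libraries were below all WT libraries, and a two-sided exact permutation test gave p = 0.1, the smallest that 3 against 3 libraries allow. Without Igfbp3 and the others with a library at 0 the difference in the sum was -100.1 FPKM in place of -126.7, and under quantile normalization it was -67.9 FPKM.

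The make-up of the sum shifted in its smaller parts. Igfbp4 took 78.5%, 81.7% and 79.0% of it in WT and 80.8%, 79.8% and 81.2% in KO, and the groups overlapped. The Igfbp7 share also overlapped (10.8 ± 0.43% and 10.9 ± 0.54%). Igfbp6 went from 5.12%, 4.08% and 5.12% in WT to 8.39%, 8.76% and 8.37% in KO, while Igfbp3 went from 5.38%, 3.95% and 4.78% to a listed 0. Igfbp3 and Igfbp6 RNA were about level in WT (26.6 ± 3.41 and 27.0 ± 2.60 FPKM, ranges overlapping).

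**Figure D2:**
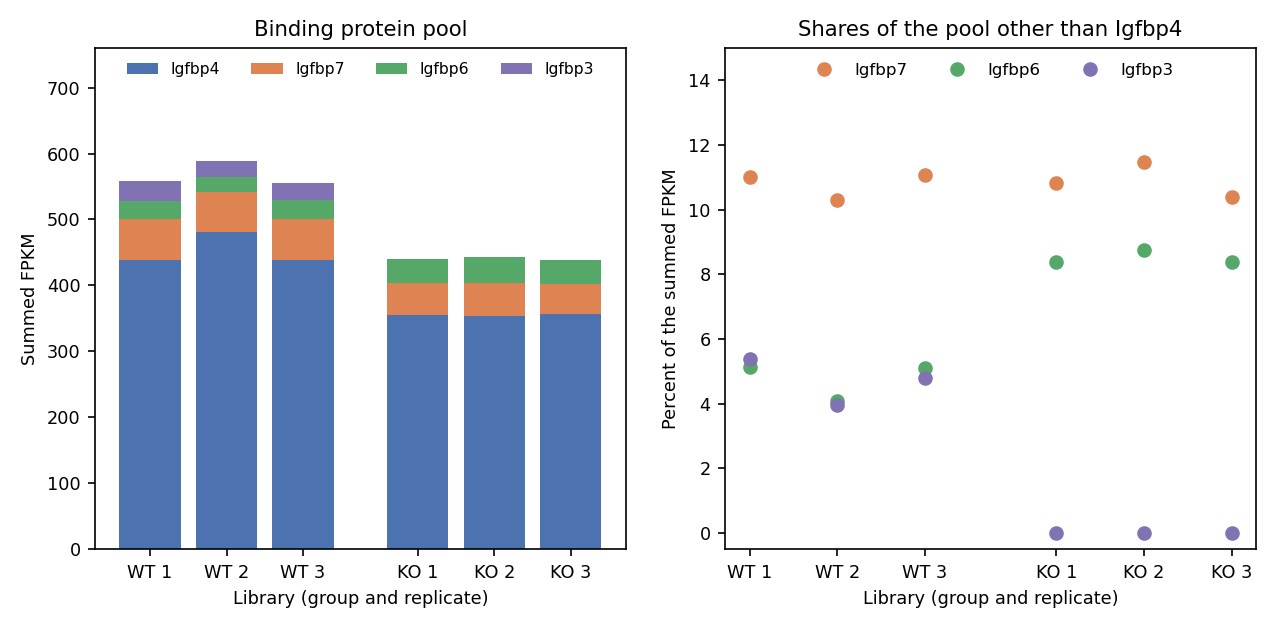
Left, summed FPKM of the binding protein genes in each library, stacked by gene (Igfbp2 and Igfbp5 are too low to be drawn). Right, percent of that sum held by Igfbp7, Igfbp6 and Igfbp3 in each library. The bars fall from 555 to 588 FPKM in WT to 439 to 443 in KO, the Igfbp6 points rise from 4.08% to 5.12% in WT to 8.37% to 8.76% in KO, and the Igfbp3 points lie at 0 in KO.

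Set against Igf2, the binding protein sum went the other way. The sum over Igf2 was 1.24, 1.26 and 1.16 in WT and 52.6, 55.7 and 54.9 in KO. This ratio was formed after its values were seen, is one of RNA levels and says nothing of protein, and its change comes from Igf2, which moved far more than any binding protein gene without a library at 0.

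Among the genes that act on the binding proteins, all 4 tested members of the list of proteases and their inhibitors fell. Stc1, a secreted inhibitor of the protease PAPP-A, read 40.7, 51.5 and 58.3 FPKM in the WT libraries against 9.03, 11.8 and 15.7 in the KO libraries (log2 fold change -2.02, SE 0.23, limma adjusted p = 0.000485). Adam12, a metalloprotease that cuts IGFBPs, read 1.43, 1.28 and 1.39 FPKM in the WT libraries against 0.250, 0.287 and 0.135 in the KO libraries (log2 fold change -1.37, SE 0.13, limma adjusted p = 0.00025). The other two, outside the rule for named genes, were the inhibitor gene Stc2 (0.87 ± 0.12 and 0.31 ± 0.08 FPKM, SD, n = 3 each; limma adjusted p = 0.00428) and the protease gene Htra1 (12.7 ± 1.21 and 5.98 ± 1.59 FPKM; limma adjusted p = 0.00451). These 4 calls, of inhibitors and of proteases, stand beside 36.7% of all tested rows called lower. The protease genes Pappa and Pappa2 were below the filter and lay on opposite sides: Pappa was lower and Pappa2 higher in every KO library than in any WT library.

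Igf2bp2, an RNA binding protein gene with a known part in fat and muscle metabolism (chromosome 16, 22059009 to 22163299, minus strand), rose 1.46-fold. It read 39.2, 42.2 and 41.2 FPKM in the WT libraries against 59.4, 58.4 and 60.7 FPKM in the KO libraries. The gap between the groups was wider than the range within either. On the log2 scale the increase was 0.54 (SE 0.04, limma adjusted p = 0.00011).

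Igf2bp3, a paralog known from embryos and tumours (chromosome 6, 49085223 to 49214957, minus strand), rose 1.57-fold. Its values were 11.5, 12.5 and 11.8 FPKM in WT and 19.2, 19.0 and 17.9 in KO, with no overlap. The log2 fold change was 0.63 (SE 0.05, limma adjusted p = 0.00016). Its exons share 1529 bases, 18.7% of them, with the converging gene Malsu1, which was not analysed here, and reads of the 2 genes could not be told apart without known strandedness.

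The third paralog fell. Igf2bp1, in a row shared with the microRNA gene Mir3063, read 7.21, 7.05 and 6.70 FPKM in the WT libraries against 5.45, 5.74 and 4.97 in the KO libraries (log2 fold change -0.35, SE 0.07, limma adjusted p = 0.00519). Igf2bp3 over Igf2bp1 was 1.59, 1.78 and 1.76 in WT and 3.53, 3.30 and 3.60 in KO, and Igf2bp2 over Igf2bp1 went from 5.44, 5.99 and 6.15 to 10.9, 10.2 and 12.2. The ratio of Igf2bp2 over Igf2bp3 overlapped between the groups (3.42, 3.37 and 3.49 in WT, 3.09, 3.08 and 3.39 in KO). The order of the paralogs per length, Igf2bp2 over Igf2bp3 over Igf2bp1, was the same in all 6 libraries.

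The paralogs are known as targets of the let-7 microRNAs, and Igf2bp2 also of the chromatin protein HMGA2, itself a let-7 target. Hmga2 read 12.9, 13.8 and 11.3 FPKM in the WT libraries against 116, 127 and 117 in the KO libraries (log2 fold change 3.20, SE 0.08, limma adjusted p = 3.48e-06), and Hmga1 rose from 221 ± 17.6 to 443 ± 7.09 FPKM (SD, n = 3 each; limma adjusted p = 4.74e-05). Lin28a and Lin28b, which encode proteins that block let-7 maturation, were listed at 0 in all 6 libraries. The 3 paralogs and Hmga2 did not move alike: Igf2bp1 was lower and the other genes higher in KO. Whether let-7 or HMGA2 had a part in these changes was not tested.

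**Figure D3:**
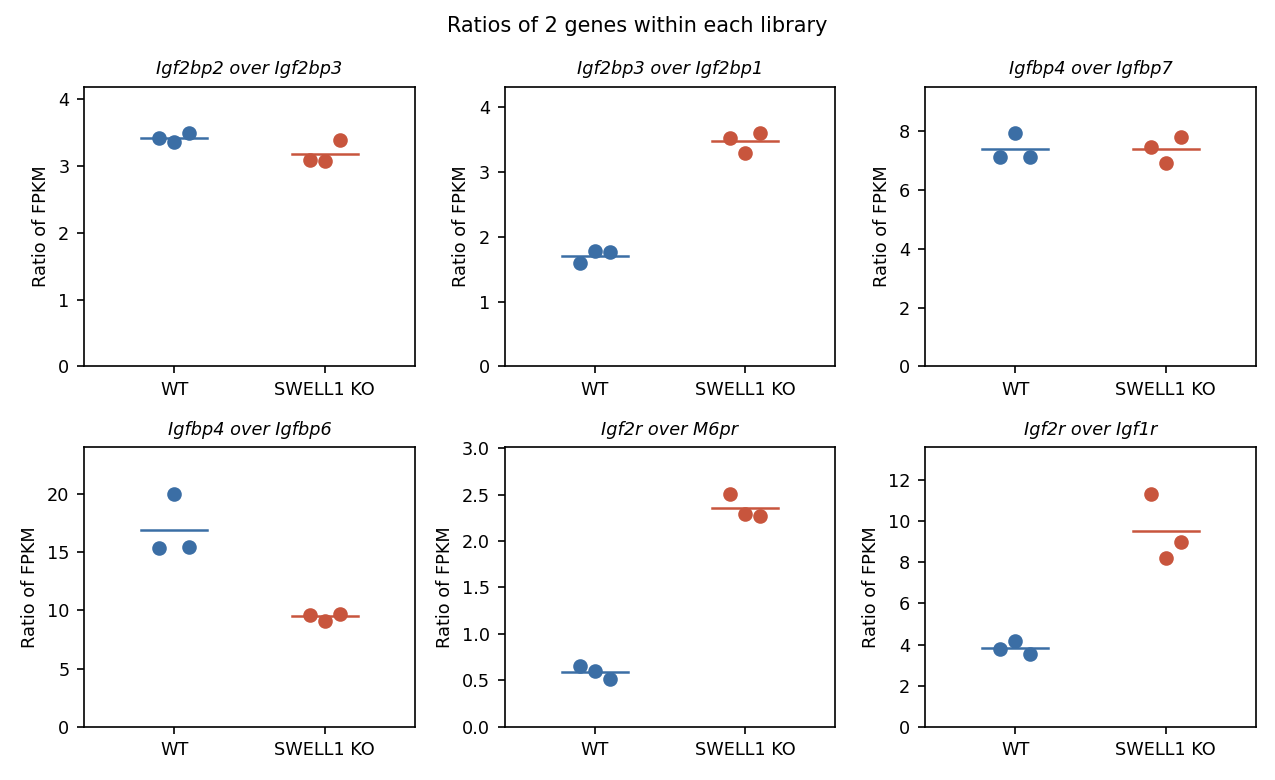
Ratio of the FPKM of 2 genes within each library (points) with the group mean (line), every axis from 0. The groups overlap for Igf2bp2 over Igf2bp3 and for Igfbp4 over Igfbp7, and lie apart for Igf2bp3 over Igf2bp1, Igfbp4 over Igfbp6, Igf2r over M6pr (0.519 to 0.659 in WT, 2.27 to 2.51 in KO) and Igf2r over Igf1r.

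In the order of levels, Igfbp4 came first in both groups. In WT it was followed by Igfbp7, Igf2r, Igf2bp2, Igfbp6, Igfbp3, Igf2bp3 and Igf1, and the ranges of Igf2r and Igf2bp2 and those of Igfbp6 and Igfbp3 overlapped. In KO the order was Igfbp4, Igf2r, Igf2bp2, Igfbp7, Igfbp6, Igf2bp3 and Igf1, with no overlap between neighbours among these 7. Igf2r and Igf2bp2, below Igfbp7 in every WT library, were above it in every KO library.

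Of the 37 further pathway genes 34 had a row of that name, while Adam9, Shc1 and Gnptab were not analysed here. Of the 26 tested 4 rose and 18 fell, beside 28.5% and 36.7% of all tested rows, with a median log2 fold change of -0.39 against -0.07. With no filter 6 were higher and 19 lower, beside 3589 and 4006 of the 16722 rows then tested. Without WT replicate 1 there were 15 lower, beside 3602 of 10530 rows. At a mean of at least 1 FPKM there were also 15, beside 3729 of 9826 rows. Some pathway genes, such as Grb10, were not tested under these last 2 settings. In the growth hormone axis, which drives Igf1 in liver and fat, 4 of 6 tested genes fell and 1 rose. Cish, a feedback inhibitor of STAT5, read 6.55, 4.48 and 4.56 FPKM in the WT libraries against 1.09, 1.08 and 0.826 in the KO libraries (log2 fold change -1.91, SE 0.17, limma adjusted p = 0.00017), and the kinase gene Jak2 fell from 29.3 ± 2.80 to 10.1 ± 1.10 FPKM (SD, n = 3 each; limma adjusted p = 7.12e-05). Ghr, the growth hormone receptor gene, was the one that rose. Of 4 tested adaptor genes of the IGF and insulin receptors 2 fell and 1 rose: Grb10, an inhibitory adaptor, read 1.09, 1.24 and 1.04 FPKM in the WT libraries against 0.0108, 0.0393 and 0.0339 in the KO libraries (limma adjusted p = 0.00011), and Irs1, a docking protein of both receptors, read 0.755, 0.687 and 0.528 FPKM in the WT libraries against 2.75, 2.06 and 2.30 in the KO libraries (limma adjusted p = 0.000352).

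**Figure D4:**
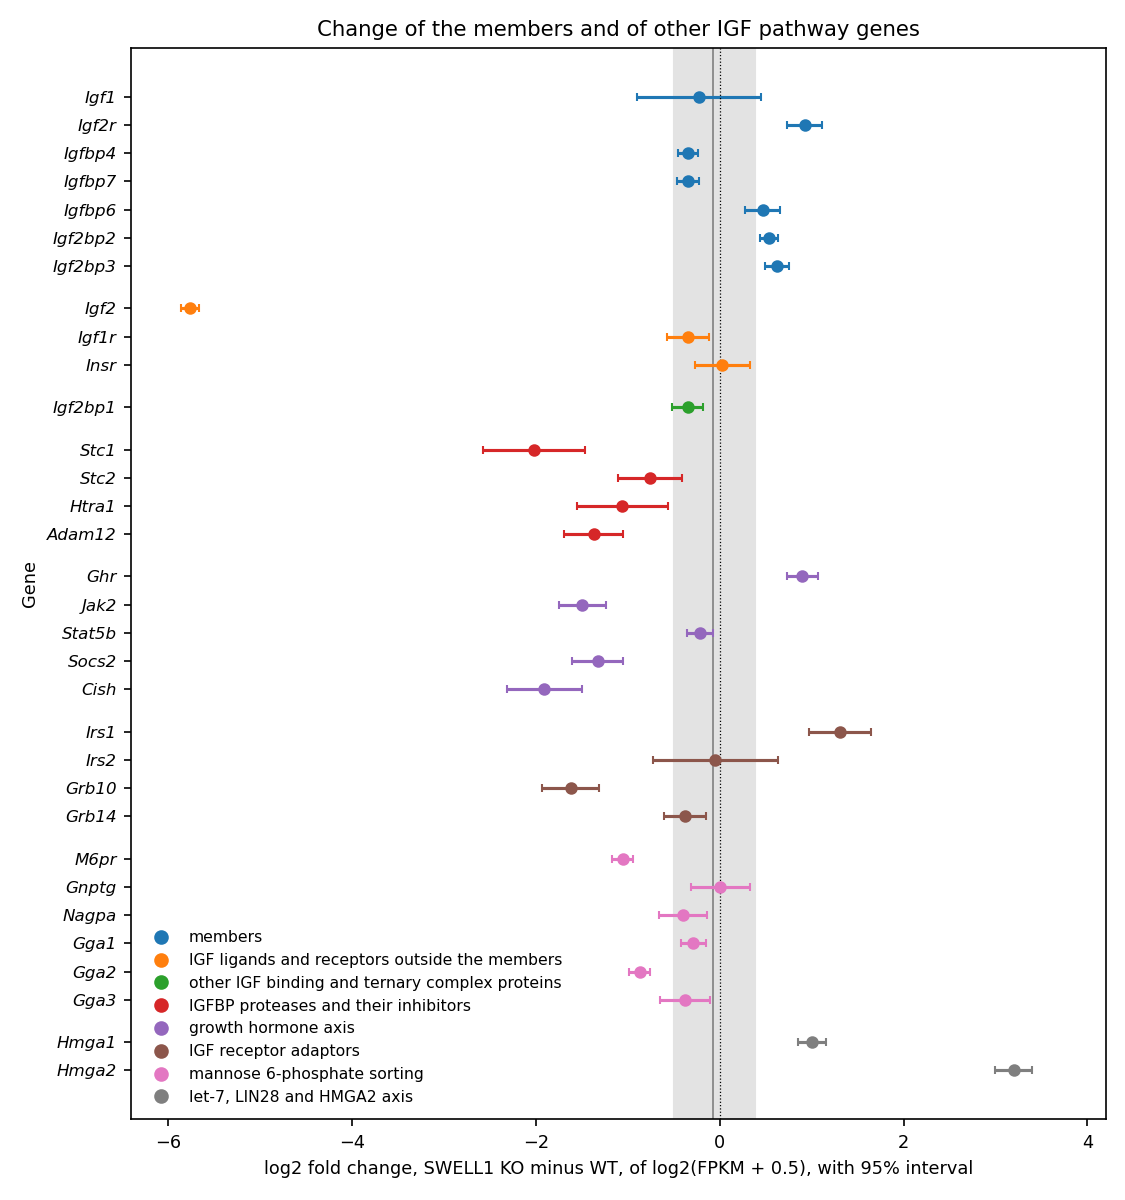
Log2 fold change, KO minus WT, of tested genes with no library at 0 (points, with 95% intervals from limma), coloured by list. The grey band spans the quartiles of all tested rows and the grey line is their median. Igf2r (0.92), Igf2bp3 (0.63), Igf2bp2 (0.54) and Igfbp6 (0.47) lie above the band, Igfbp4 and Igfbp7 inside it, and Igf2 (-5.76) and Hmga2 (3.20) farthest out.

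Genes with the pattern most like the 3 largest increases were found among 6867 tested rows with a single name, at least 5 FPKM on average and no library at 0, by the root mean square difference in log2 value from the WT mean over 6 libraries. Closest to Igf2r was Ghr (0.037 log2 units), with 51.7, 50.5 and 45.2 FPKM in the WT libraries against 97.0, 91.3 and 87.8 in the KO libraries, followed by Ptgfr (0.043) and Gm14410 (0.048). Closest to Igf2bp3 were Atxn1l (0.022), Mgat2 (0.028) and Cd248 (0.034), and closest to Igf2bp2 were Dnajc13 (0.021), Tbl3 (0.023) and G6pdx (0.024). These distances rest on the same 6 libraries in 2 groups and describe likeness in level change only.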

How the data were processed

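The authors deposited 1 table with a value per gene row and library. Its unit, FPKM, is inferred: the submitters' processing notes name TopHat, Cufflinks 2.02 and the build GRCm38, and the deposited values are never negative and mostly not whole. For settings, annotation release and strandedness the sources used here give nothing. The 3 WT and 3 KO libraries were compared as deposited. Rows averaging 0.5 FPKM or more entered a fit of log2(FPKM + 0.5) by limma 3.58.1 (R 4.3.3; mean-variance trend, two-sided, Benjamini-Hochberg adjustment over all tested rows, threshold 0.05), after a test on simulated data. This scale understates changes of low genes. Depth came from 1240 genes whose only transcript in GENCODE M21 has 2500 bases or more. FPKM hold no counts, and 3 libraries per group limit the precision. No 2 libraries looked like one deposited again: within groups 25.3% to 31.8% of rows at 10 FPKM or more differed by over 10%. All 10 genes are named. Further pathway genes are the 2 with the largest called change in each of 7 lists and all of the ligand and receptor list. The genes, lists and motifs were chosen with earlier results of these data known. None of the ratios between genes was among the planned results. All 10 genes matched RefSeq promoters. Protein sequences were not used here. Alternatives were the pseudocount, filter, scaling, robust variance, a replicate block and leaving out each library. Python 3.11.15 was used for reading and drawing.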

Additional observations from a re-analysis of the deposited data

How the results depend on the processing

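Under all 14 alternatives the 7 called IGF genes kept their direction and their call. Igf1, below the filter in 3 of them, was called in none, and its log2 fold change ranged from -0.44 to 0.04, above 0 only without KO replicate 3. With a replicate block 4 of the IGF genes were higher and 3 lower, as without it, and 2846 rows were higher and 3688 lower, against 2998 and 3862. Over all tested rows, libraries with the same number did not deviate together (Pearson's r 0.003, 0.012 and -0.093 for numbers 1, 2 and 3). A correlation over all rows cannot show whether some genes vary with the number. Of the further pathway genes named by the rule, 189 of 191 refits gave the same result as the main fit and 2 lost the call, both of Igf1r. Stc2, Htra1, Ghr and Stat5a, named outside the rule, are not among these refits. Insr, not called in the main fit, was called in no alternative. Grb10 was tested in 10 of the 14 alternatives and Adam12 in 13. The genes named were mostly chosen for large changes: over all pathway genes the 18 lower calls became 16 with the replicate block and 15 to 17 with 1 library left out. Leaving out 1 library moved the binding protein difference between -132.8 and -116.3 FPKM, and it was -103.2 under median-ratio scaling and -67.9 under quantile normalization. The median of all tested rows lay between -0.08 and 0.01 across settings. Igf1, Igfbp2 and Igfbp5 are limited by depth, and Igfbp3 in KO by the meaning of an exact 0.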

Other observations

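Some genes that act on the IGF system lay below the filter of the test and are given as values only. Igfals, which encodes the third partner of the circulating IGF complex with IGFBP3, read 0.0853, 0.0257 and 0 FPKM in the WT libraries against 0.413, 0.359 and 0.240 in the KO libraries. Pappa, which encodes the protease that cuts IGFBP4, read 0.355, 0.474 and 0.323 FPKM in the WT libraries against 0.119, 0.0877 and 0.124 in the KO libraries. Pappa2, whose row also holds 1600012P17Rik, read 0.00590, 0 and 0.00487 FPKM in the WT libraries against 0.283, 0.235 and 0.304 in the KO libraries. Igfbpl1, an IGFBP-like gene, was listed at 0 in all 6 libraries.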
